A study of Mus musculus with 8 samples.

Results

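Splicing factor genes were taken as every gene symbol in the deposited FPKM tables that begins with Snrp, with Srsf or Sfrs and a digit, with Hnrnp, or with Sf3a or Sf3b and a digit. The rule gave 50 of 23235 symbols, made up of 12 snRNP genes, 12 SR genes, 18 hnRNP genes and 8 SF3 genes. All 50 passed the filter on low values, FPKM above 1 in at least 1 library, which 15899 symbols passed. FPKM scales the reads of a gene by transcript length and by library size, so levels of different genes are compared per length.

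The study asked what loss of CNOT4, a subunit of the CCR4-NOT complex that shortens mRNA tails, does to the transcripts of male meiosis. Spermatocytes were sorted by flow cytometry from WT males and from Cnot4 fl/fl;Stra8-Cre males, called Cnot4-null, on the C57BL/6 strain. Cells were gated on Hoechst and propidium iodide stain, and the study states that it checked the identity and purity of the sorted germ cells by immunofluorescence for SYCP3 and pH2AX. The mice used for such cells were 6 weeks old and received no treatment. Cells in leptotene and zygotene (LZ) and in pachytene and diplotene (PD) gave 4 groups of 2 libraries each, written WT LZ, null LZ, WT PD and null PD, where null PD stands for the libraries labelled Cnot4-null PD. Stra8-Cre acts in germ cells, so the other cells of a Cnot4-null testis keep the gene. In bulk RNA, fewer cells of a type and less RNA per cell cannot be told apart.

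The spliceosome removes introns from new transcripts. Its small nuclear ribonucleoproteins (snRNPs) carry a ring of Sm proteins around a U RNA, and the SF3A and SF3B complexes help the U2 snRNP hold the branch point. SR proteins favor the use of nearby splice sites, and hnRNP proteins coat the transcript and often oppose them. The testis is known for extensive alternative splicing, and genes of the X chromosome are silenced in pachytene cells.

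Cnot4 was listed at 36.0 and 34.9 FPKM for WT LZ and 43.2 and 34.6 for null LZ, and at 76.6 and 73.1 for WT PD, then 65.9 and 53.5 for null PD. The deletion takes an early exon and shifts the reading frame, so the level of the whole gene does not check the genotype. By limma with Benjamini-Hochberg adjustment neither genotype difference was called (log2 0.12, adjusted p = 1 at LZ and log2 -0.33, adjusted p = 0.192 at PD).

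Both null PD libraries stood apart from the other 6 in markers of Leydig cells, round spermatids, myoid cells and endothelial cells. The Leydig cell list, with 8 of 8 genes listed, summed to 17.2 and 9.89 FPKM for WT LZ, 10.8 and 19.0 for null LZ, 116 and 7.07 for WT PD, then 10082 and 22306 for null PD. Its most abundant gene in each library was Insl3, a Leydig cell hormone, at 9669 and 21608 FPKM in null PD, where all 8 genes were above 1 and none was at 0. The round spermatid list (8 of 8 listed, led by Prm1 in null PD) summed to 1840.4 and 1535, 4069.9 and 722, 426 and 267, and 16008 and 7249 FPKM over the same groups. The pachytene and diplotene list (10 of 10, led by Ldhc at PD) was highest in WT PD, at 13336 and 12449 FPKM, with 6324 and 2439 in null PD.

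**Figure D1:**
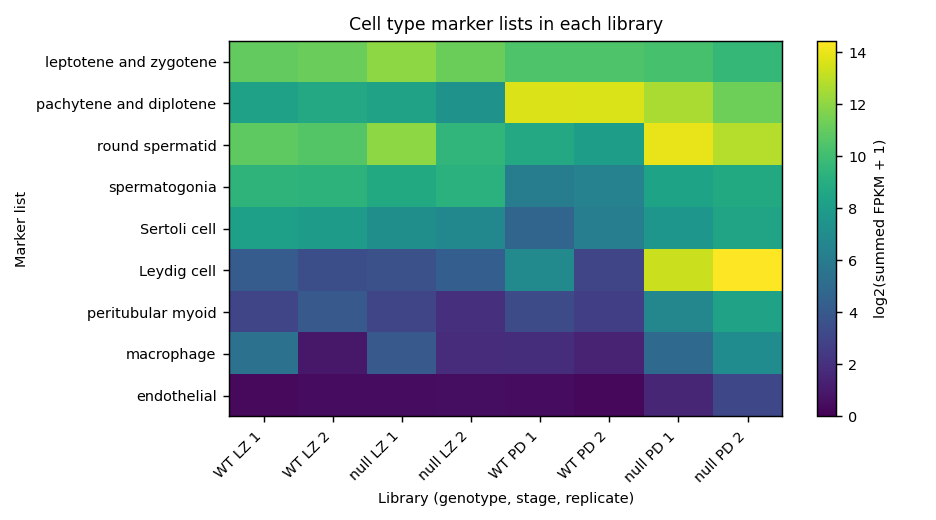
Summed FPKM of 9 cell type marker lists (vertical axis) in each of the 8 libraries (horizontal axis), on a log2(summed FPKM + 1) color scale. The Leydig cell list stands at 10082 and 22306 FPKM in null PD and at no more than 116 FPKM in the other 6 libraries.

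Myoid genes (6 of 6 listed, led by Acta2 in null PD and Actg2 in WT PD) summed to 7.17 and 15.5 FPKM for WT LZ, 7.24 and 2.94 for null LZ, 8.85 and 5.35 for WT PD, then 101 and 321 for null PD. Endothelial genes (6 of 6, led by Cdh5 in null PD, with Esam at 0 in its first library) summed to 0.272 and 0.390, 0.416 and 0.454, 0.420 and 0.249, and 1.88 and 7.62 FPKM over the same groups. Both lists were highest in null PD.

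Of the other lists, 3 summed higher in null PD than in WT PD, but not above every LZ library in both null PD libraries. The second null PD library was above every LZ library for the Sertoli cell and macrophage sums. By group means Id4 (spermatogonia) and Cst12 (Sertoli cell) went the other way, at 60.1 and 22.5 FPKM in WT PD. In null PD these genes were at 29.1 and 11.5 FPKM. Spermatogonia genes (8 of 8, led by Uchl1 in null PD and Id4 in WT PD) summed to 673 and 636 FPKM for WT LZ, 441 and 609 for null LZ, 68.2 and 83.4 for WT PD, then 333 and 436 for null PD, so that WT PD was the low group. Sertoli cell genes (10 of 11, led by Clu in null PD and Cst12 in WT PD) summed to 281 and 243, 146 and 108, 25.0 and 71.4, and 195 and 349.8 FPKM over the same groups, with Amh at 0 in 7 of the 8 libraries. Macrophage genes (7 of 8, led by Lyz2 at PD) summed to 40.4 and 0.915, 15.3 and 2.51, 2.75 and 1.60, and 29.1 and 129.8 FPKM over the same groups. In WT PD the Sertoli cell list was lowest of all groups, and the macrophage list was low in 1 library of each LZ group too. By contrast the sum of the leptotene and zygotene list (10 of 11, led by Sycp3) was lowest in null PD, though its genes went both ways. The sum stood at 2027 and 2304 FPKM for WT LZ, 4055 and 2357 for null LZ, 1399.6 and 1403 for WT PD, then 1217 and 787 for null PD. By group means, null PD over WT PD was 24.8 for Stra8, 10.2 for Dmc1, 8.28 for Rec8 and 7.36 for Gm960. The same ratio was 6.15 for Prdm9, 1.23 for Sycp1, 0.989 for Smc1b, 0.604 for Sycp2, 0.463 for Sycp3 and 0.395 for Hormad1. The part of the cell types of these lists in the results at PD was not tested.

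The libraries also differed in scale. The median FPKM of the 15899 genes was 5.57 and 5.69 for WT LZ, 5.78 and 5.18 for null LZ, 3.05 and 3.04 for WT PD, then 8.09 and 8.43 for null PD. Each result was therefore computed on FPKM as deposited, after quantile normalization, and after rescaling the libraries to the same median. Between null PD and WT PD the median change of all genes was log2 0.66 as deposited, -0.10 after quantile normalization and -0.21 at the same median. From LZ to PD in WT it was -0.32, -0.06 and 0.05, and in the null libraries 0.19, -0.29 and -0.23. Tests used limma on log2(FPKM + 1), where low genes show less change than they had, and a gene was called at an adjusted p under 0.05 over all genes tested in a comparison.

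Splicing factor genes were abundant in all 8 libraries. The median member stood at 112 and 113 FPKM in WT LZ, above 93.9 and 94.2 percent of the genes tested, and at 83.2 and 83.1 FPKM in WT PD, above 90.0 and 90.1 percent. Their summed share of all FPKM was 2.30 and 2.28 percent in WT LZ, 2.13 and 2.24 in null LZ, 0.826 and 0.824 in WT PD, then 1.05 and 1.16 in null PD. Every LZ library thus gave these genes a larger summed share than every PD library, a sum led by the snRNP genes, above all Snrpg. The snRNP genes alone held 1.67 and 1.60 percent in WT LZ, 1.48 and 1.51 in null LZ, 0.478 and 0.471 in WT PD, then 0.693 and 0.694 in null PD. The SF3 genes held 0.0767 and 0.0717 percent, 0.0708 and 0.0872, 0.0580 and 0.0534, and 0.0597 and 0.0813 over the same groups, so that the second null PD library was above 3 of the 4 LZ libraries.

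**Figure D2:**
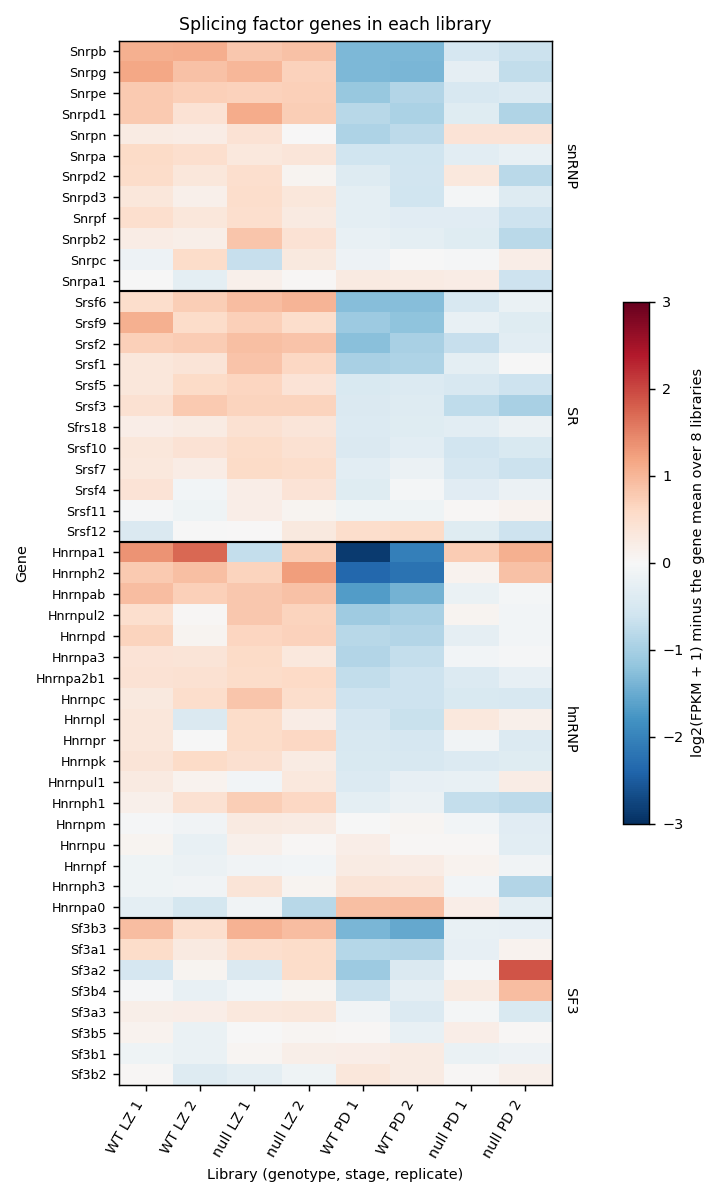
Level of each of the 50 genes (vertical axis, by subgroup) in each of the 8 libraries (horizontal axis), as log2(FPKM + 1) minus the mean of that gene over the libraries. On FPKM as deposited most genes are lower in WT PD than in both LZ groups, a direction that is evenly split at the same median, and Hnrnpa0 and Srsf12 are higher there.

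From LZ to PD in WT, 30 of the 50 members fell (background 36.2% of all genes) and 2 rose (background 21.6%), with a similar count after quantile normalization (32 and 2) and an even split at the same median (11 and 11). All genes had 30.3% lower and 25.9% higher after quantile normalization, and 26.9% and 32.5% at the same median, where both shares of the members, 22% each, were below these. Relative to all genes the members' median was -0.43 as deposited, -0.91 after quantile normalization and 0.08 at the same median. Rescaling moves all genes of a library by the same factor, so the last value differs from the first only through the added 1. That 1 shrinks the changes of low genes. With a mean FPKM of at least 5 the medians were log2 -0.75 for members and -0.43 for all genes. Then 60.4% of members and 43.9% of all genes fell. By role, as deposited, snRNP genes had 0 higher and 8 lower of 12, SR genes 1 higher and 9 lower of 12, hnRNP genes 1 higher and 11 lower of 18 and SF3 genes 0 higher and 2 lower of 8. Under all 3 scalings 11 members fell, namely Snrpb, Snrpe, Snrpg, Snrpn, Srsf2, Srsf6, Srsf9, Hnrnpa1, Hnrnpab, Hnrnph2 and Sf3b3, and Hnrnpa0 and Srsf12 rose. Those 22% and 4% of members stand beside 24.4% and 21.2% of all genes called so under all 3. Leaving out either null PD library gave 6 higher (24.3% of all genes in both fits), and leaving out either null LZ or either WT PD library gave 1 (16.3% to 20.6% of all genes).

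In the null libraries 27 of 50 members fell from LZ to PD (background 18.2%) and limma called 0 higher (background 27.8%). In either direction 33 members of 50 had an unadjusted limma p under 0.05. So had 8602 of the 15899 genes tested, a smaller share. The median was log2 -0.66, against 0.19 for all genes. With a mean FPKM of at least 5 the medians were log2 -0.69 for members and -0.15 for all genes. Then 56.2% of members and 28.1% of all genes were lower, so part of the gap went with abundance. Quantile normalization gave 33 lower (31.4% of all genes) and the same median 38 (32.6% of all genes). Each gave 0 members higher by limma, against 18.7% and 21.0% of all genes. All 27 were lower under the 3 scalings, as were 18.1% of all genes. The snRNP genes had 0 higher and 8 lower of 12, SR genes 0 higher and 9 lower of 12, hnRNP genes 0 higher and 8 lower of 18 and SF3 genes 0 higher and 2 lower of 8. Without the first null LZ library fewer members and fewer of all genes were called lower, with medians of log2 -0.66 and 0.22. Without the second null LZ library these medians were -0.74 and 0.16, and without the first null PD library -0.77 and 0.16.

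Between the genotypes at LZ, limma called 0 members higher (background 0.0692%) and 0 lower (background 0.0252%). At an unadjusted p under 0.05 there was 1 member, Hnrnpa1, among 1013 of all genes tested.

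At PD the comparison of null with WT gave 17 members higher (34%, background 41.6%) and 3 lower (6%, background 11.5%), both shares below those of all genes as deposited. The direction of the family turned with scale, since quantile normalization gave 13 higher and 3 lower while the same median gave 3 higher and 38 lower. The relation to all genes turned as well: after quantile normalization 26% of members and 17.8% of all genes were higher, and 6% and 25.6% lower. At the same median 6% of members and 23.4% of all genes were higher, and 76% and 40.1% lower. Relative to all genes the members' median was -0.44 as deposited, 0.40 after quantile normalization and -0.995 at the same median. The last value again differs from the first only through the 1 added after rescaling, which shrinks the changes of low genes. With a mean FPKM of at least 5 the medians were log2 0.23 for members and 0.30 for all genes. Then 35.4% of members and 39.35% of all genes were higher, and 4.17% and 16.5% lower. The snRNP genes had 3 higher and 0 lower of 12, SR genes 4 higher and 1 lower of 12, hnRNP genes 7 higher and 2 lower of 18 and SF3 genes 3 higher and 0 lower of 8 as deposited.

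The members called at PD under all 3 scalings were Hnrnpa1 and Hnrnph2, higher, and Hnrnpa0, Hnrnph3 and Srsf12, lower. These 4% and 6% of members lie below the 13.8% and 11.1% of all genes called so under all 3. On deposited FPKM, the members Hnrnpa1, Hnrnph2, Hnrnpab, Sf3b3 and Srsf6 were called higher whichever library was left out. How many of all genes kept their call in this way was not counted. With all libraries 24 of the 50 members had an unadjusted limma p under 0.05. So had 9601 of the 15899 genes tested, a larger share. Without the first WT PD library fewer members and fewer of all genes were called, with medians of log2 0.26 and 0.66. Without the second WT PD library these medians were 0.20 and 0.67. Without the first null PD library there were 18 higher and 10 lower (44.5% and 18.1% of all genes), so that the share of members lower, 20%, was then above that of all genes. Without the second there were 14 and 2 (39.1% and 6.89%).

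**Figure D3:**
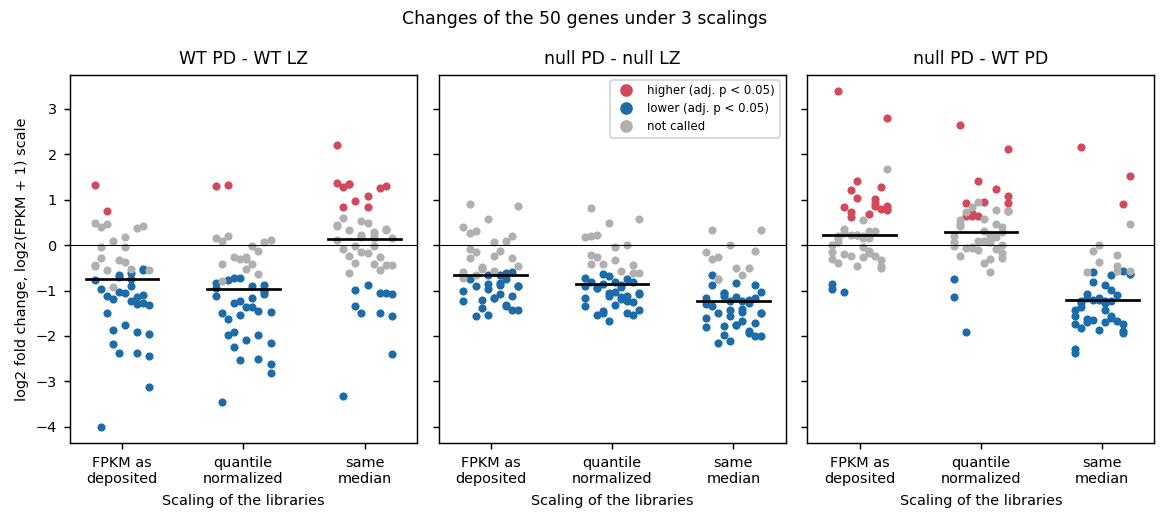
Log2 fold change (vertical axis) of the 50 members, drawn as points, in 3 comparisons under each of 3 scalings (horizontal axis), colored by the limma call, with a bar at the median. For null PD against WT PD the median turns from 0.23 on FPKM as deposited to -1.21 at the same median, and for null PD against null LZ it is below 0 under all 3.

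The change from LZ to PD differed between the genotypes, by the interaction term, upward in null for 7 members (background 26.0%) and downward for 2 (background 3.97%), which after quantile normalization became 6 and 2 (9.74% and 12.4% of all genes) and at the same median 2 and 31 (13.7% and 32.3% of all genes). Hnrnpa1, upward, and Srsf12, downward, were called under all 3 scalings (7.28% upward and 3.77% downward of all genes), although the call of Srsf12 on deposited FPKM ended without either WT PD, either null LZ or the first WT LZ library. The upward count was 2 or 3 without the first or second WT PD library, 3 without the first WT LZ library, and 4 or 3 without the first or second null LZ library, fits in which 10.1% to 16.1% of all genes were upward. The downward calls of members ended without any of these 5 libraries, and fewer of all genes were then downward too. Members and all genes were also less often downward without the second WT LZ library. Without the first or second null PD library both were more often downward. The members' medians were then log2 0.04 and 0.20, against 0.65 and 0.57 for all genes.

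Among the Sm ring genes, Snrpg (mm9 chr6:86321534-86328896, plus strand) was the most abundant member in each library. It was listed at 5431 and 4497 FPKM for WT LZ, 4841 and 3957 for null LZ, 964 and 943 for WT PD, then 2037 and 1466 for null PD. The LZ libraries were highest, WT PD was lowest, and the PD groups did not overlap. From LZ to PD in WT the change was log2 -2.37 ± 0.26 SE (limma adjusted p = 0.000217), called under all 3 scalings. At PD the genotype difference was log2 0.86 ± 0.26 SE (limma adjusted p = 0.0284), which turned to -0.58 at the same median. With any library but the second of null PD left out, that PD call ended (adjusted p 0.0153 to 0.137 over the left-out fits). Of its windows of 50 bases, 88.4% occur elsewhere in the mm9 genome, and how many of its reads were kept as uniquely mapped was not tested.

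Promoters are shown for members on which the results turn, from RefSeq (GRCm38.p6), which held 44 of the 50 members. Each has 300 bases, of which 250 lie before the start of the gene. Capitals mark 6 motifs on either strand, overlapping matches joined: the CCAAT box (CCAAT), the TATA box (TATAAA), the GC box (GGGCGG), an ETS core (CCGGAAG), a CRE (TGACGTC) and an NRF1 core (CGCATGC). The CCAAT box was in 52.3% of the 44 and 41.1% of 27025 genes, the GC box in 70.5% and 38.2%, and the ETS core in 34.1% and 9.93%. The TATA box was in 15.9% and 15.7%, the CRE in 9.09% and 3.60%, and the NRF1 core in 11.4% and 4.01%. The promoter of Snrpg lies at GRCm38.p6 chr6:86371290-86371589, plus strand.
Snrpg: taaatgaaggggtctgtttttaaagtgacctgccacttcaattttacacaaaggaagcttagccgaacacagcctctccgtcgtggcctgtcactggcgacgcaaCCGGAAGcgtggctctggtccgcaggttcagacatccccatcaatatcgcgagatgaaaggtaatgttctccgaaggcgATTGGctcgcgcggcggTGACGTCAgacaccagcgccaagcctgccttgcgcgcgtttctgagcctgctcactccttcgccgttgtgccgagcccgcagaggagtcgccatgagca

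Snrpb, which encodes the Sm proteins B and B', was at 656 and 671 FPKM for WT LZ, 551 and 574 for null LZ, 121 and 121 for WT PD, then 221 and 199 for null PD. Again WT PD was lowest and the PD groups did not overlap. The WT stage change was log2 -2.44 ± 0.17 SE (limma adjusted p = 3.79e-05) and was called under all 3 scalings, and the PD difference of log2 0.79 ± 0.17 SE (limma adjusted p = 0.00809) turned to -0.64 at the same median. That PD call ended without either WT PD library (adjusted p over the left-out fits 0.00382 to 0.0584).

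Snrpe, another Sm ring gene, was at 2433 and 2294 FPKM for WT LZ, 2280.4 and 2289 for null LZ, 639 and 760.4 for WT PD, then 1004 and 1046 for null PD. Its fall in WT was called under all 3 scalings (log2 -1.76 ± 0.20 SE, limma adjusted p = 0.000265), and its PD difference of log2 0.56 was not called (limma adjusted p = 0.0522). It was called higher after quantile normalization, with a replicate block, with a mean FPKM of at least 5 and without the first null PD library, and turned to -0.88 at the same median. Snrpn, an imprinted relative of Snrpb, was a low gene at 1.28 and 1.24 FPKM for WT LZ, 1.56 and 0.928 for null LZ, 0 and 0.104 for WT PD, then 1.54 and 1.54 for null PD. It reached at most 0.771% of the level of Snrpb in a library. Limma called it higher at PD (log2 1.27 ± 0.26 SE, adjusted p = 0.00613), a call that ended after quantile normalization (0.28) and, like its call from LZ to PD in WT (log2 -1.10 ± 0.26 SE), without the first WT PD library.

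**Figure D4:**
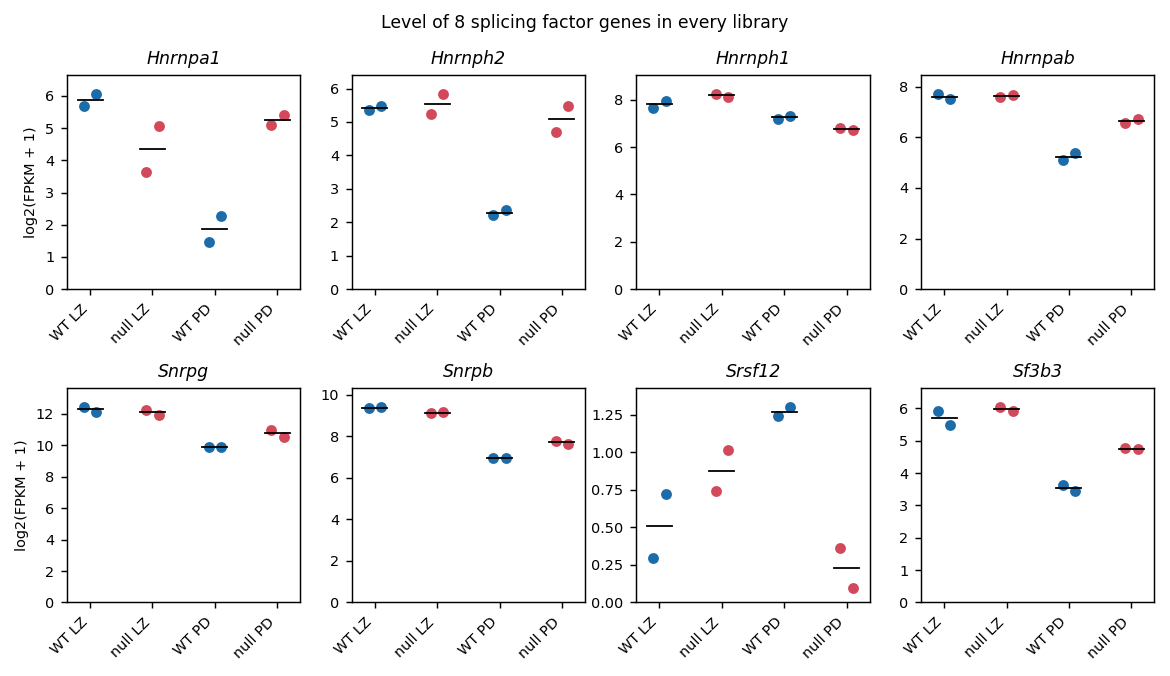
Level of 8 splicing factor genes in each library as log2(FPKM + 1) (vertical axis), by group (horizontal axis), with WT in blue, null in red and a bar at the mean. Hnrnpa1 and Hnrnph2 are lowest in WT PD, at 1.77 and 3.85 and at 3.68 and 4.13 FPKM, and Srsf12 is highest there.

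Srsf2 and Srsf3 had the highest levels of the SR genes by the mean over the 8 libraries, though not in every PD library. Srsf2 was at 331 and 339 FPKM for WT LZ, 377 and 362 for null LZ, 82.8 and 101 for WT PD, then 124 and 161 for null PD. Srsf3, one of the smallest SR proteins, was at 309 and 388, 361 and 357, 167 and 171, and 133 and 114 FPKM over the same groups. In both genes the LZ libraries were highest, but null PD was above WT PD for Srsf2 and below it for Srsf3. Limma called Srsf2 higher at PD (log2 0.62 ± 0.20 SE, adjusted p = 0.0369), a difference of -0.81 at the same median and not called after quantile normalization. With any library but the first of null PD left out, that call ended (adjusted p 0.00963 to 0.203 over the left-out fits). Srsf3 was not called at PD (log2 -0.45, limma adjusted p = 0.0845), but was called lower at the same median (-1.88) and without the first null PD library (log2 -0.56 to -0.34 over the left-out fits).

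Srsf6 was at 88.6 and 103 FPKM for WT LZ, 117 and 125 for null LZ, 24.7 and 24.7 for WT PD, then 43.8 and 53.0 for null PD. Srsf9 was at 218 and 154, 171 and 151, 48.8 and 44.9, and 89.9 and 81.3 FPKM over the same groups. For these SR genes WT PD was lowest and null PD lay between it and LZ. The WT stage changes were log2 -1.91 ± 0.19 SE for Srsf6 and -1.95 ± 0.22 SE for Srsf9 (limma adjusted p = 0.000129 and 0.000225), called under all 3 scalings. At PD Srsf6 differed by log2 0.94 ± 0.19 SE and Srsf9 by 0.86 ± 0.22 SE (limma adjusted p = 0.00583 and 0.0145), with -0.46 and -0.56 at the same median. Srsf6 was not called after quantile normalization either. The call of Srsf9 ended without either WT PD library.

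Srsf12, an SR protein that acts as a repressor of splicing, went the other way. It was at 0.228 and 0.646 FPKM for WT LZ, 0.669 and 1.02 for null LZ, 1.36 and 1.46 for WT PD, then 0.284 and 0.0691 for null PD. WT PD was highest and did not overlap with any other group, at levels near 1 FPKM. Limma called it higher in WT PD than in WT LZ (log2 0.76 ± 0.27 SE, adjusted p = 0.0454) and lower in null PD than in WT PD (log2 -1.04 ± 0.27 SE, adjusted p = 0.0164), each under all 3 scalings. With a replicate block, and with a pseudocount of 0.1, only 1 of Srsf12 and Hnrnpa0 was still called higher from LZ to PD in WT. The stage call ended without any of 5 libraries (the first WT LZ and both of null LZ and WT PD), and the PD call without either WT PD library (log2 -1.17 to -0.91 over the left-out fits). Relative to Srsf10, its closest paralog, which no rescaling of a library alters, it was 0.150% and 0.404% in WT LZ, 0.382% and 0.631% in null LZ, 1.56% and 1.52% in WT PD, then 0.359% and 0.0801% in null PD. Its promoter lies at GRCm38.p6 chr4:33209022-33209321, plus strand.
Srsf12: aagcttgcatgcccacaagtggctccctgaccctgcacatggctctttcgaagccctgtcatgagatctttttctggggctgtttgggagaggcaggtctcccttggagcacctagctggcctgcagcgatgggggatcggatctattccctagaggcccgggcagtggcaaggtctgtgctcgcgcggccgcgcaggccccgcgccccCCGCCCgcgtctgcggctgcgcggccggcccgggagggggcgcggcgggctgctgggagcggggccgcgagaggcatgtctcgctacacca

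Hnrnpa1 (mm9 chr15:103070945-103074445, plus strand), a nuclear protein that often represses exons, showed the largest difference among the members at PD. It was at 50.4 and 65.7 FPKM for WT LZ, 11.4 and 32.6 for null LZ, 1.77 and 3.85 for WT PD, then 33.5 and 41.7 for null PD. WT PD was lowest, and the null LZ libraries lay below WT LZ and far from each other. The WT stage change was log2 -4.00 ± 0.49 SE (limma adjusted p = 0.000341) and the PD difference 3.39 ± 0.49 SE (adjusted p = 0.00156), called under all 3 scalings and without any single library. At LZ the difference of -1.52 ± 0.49 SE was not called (limma adjusted p = 0.669). Of its windows of 50 bases 82.9% occur elsewhere in the genome.

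Beside Hnrnpa2b1, a paralog with 6.33% of such windows, Hnrnpa1 stood at 11.0% and 14.2% in WT LZ, 2.30% and 6.40% in null LZ, 0.876% and 1.75% in WT PD, then 13.1% and 14.7% in null PD. Within a library, then, the pair was in a similar ratio in WT LZ and null PD and in a lower one in WT PD. The promoter of Hnrnpa1 lies at GRCm38.p6 chr15:103240147-103240446, plus strand.
Hnrnpa1: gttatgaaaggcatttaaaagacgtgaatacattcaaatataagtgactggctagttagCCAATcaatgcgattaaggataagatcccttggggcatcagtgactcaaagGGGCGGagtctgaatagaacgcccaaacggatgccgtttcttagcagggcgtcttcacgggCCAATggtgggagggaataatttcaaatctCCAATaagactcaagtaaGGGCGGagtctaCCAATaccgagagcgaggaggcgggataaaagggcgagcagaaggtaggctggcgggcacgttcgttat

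Hnrnph2 (mm9 chrX:131135718-131141599, plus strand), a protein that binds runs of G, was the only member on the X chromosome. It was at 40.2 and 43.7 FPKM for WT LZ, 37.0 and 56.1 for null LZ, 3.68 and 4.13 for WT PD, then 24.8 and 43.4 for null PD. Both WT PD libraries were below the other 6. The WT stage change was log2 -3.13 ± 0.31 SE (limma adjusted p = 0.000144) and the PD difference 2.79 ± 0.31 SE (adjusted p = 0.000583), called under all 3 scalings and without any single library.

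The autosomal paralog Hnrnph1 was at 202 and 247 FPKM for WT LZ, 302 and 278 for null LZ, 147 and 159 for WT PD, then 109.7 and 105 for null PD, and was not called at PD (log2 -0.51, limma adjusted p = 0.0503) on deposited FPKM with all libraries. It was called lower without the first null PD library, without a filter, with a pseudocount of 0.1 and at the same median (log2 -0.57 to -0.45 over the left-out fits). Hnrnph2 stood at 19.9% and 17.7% of Hnrnph1 in WT LZ, 12.2% and 20.2% in null LZ, 2.50% and 2.59% in WT PD, then 22.7% and 41.3% in null PD. The ratio within WT PD was lower than in each of the other 6 libraries. The promoter of Hnrnph2 lies at GRCm38.p6 chrX:134600929-134601228, plus strand.
Hnrnph2: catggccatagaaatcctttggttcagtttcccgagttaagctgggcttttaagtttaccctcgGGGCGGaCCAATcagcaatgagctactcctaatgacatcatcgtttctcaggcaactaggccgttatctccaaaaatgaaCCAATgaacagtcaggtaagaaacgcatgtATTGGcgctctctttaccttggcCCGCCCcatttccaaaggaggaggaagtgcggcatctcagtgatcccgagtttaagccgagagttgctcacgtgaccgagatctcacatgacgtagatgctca

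Hnrnpab, an A/B-type hnRNP, was at 208 and 180.5 FPKM for WT LZ, 194 and 201 for null LZ, 33.5 and 40.5 for WT PD, then 94.8 and 105 for null PD. The PD groups did not overlap, and both lay below LZ. The WT stage change was log2 -2.36 ± 0.19 SE (limma adjusted p = 5.74e-05), called under all 3 scalings. The PD difference was 1.41 ± 0.19 SE (limma adjusted p = 0.00111) as deposited and 1.42 after quantile normalization, and at the same median it was 0.00 and not called. Its windows were nearly all its own, with 1.22% found elsewhere. The promoter of Hnrnpab lies at GRCm38.p6 chr11:51606832-51607131, minus strand.
Hnrnpab: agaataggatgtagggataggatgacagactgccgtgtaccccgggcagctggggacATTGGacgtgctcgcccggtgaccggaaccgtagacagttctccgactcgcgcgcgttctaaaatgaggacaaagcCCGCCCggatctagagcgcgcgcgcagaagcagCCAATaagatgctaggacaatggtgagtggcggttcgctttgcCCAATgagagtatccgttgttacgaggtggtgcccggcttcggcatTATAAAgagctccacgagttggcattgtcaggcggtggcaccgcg

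Hnrnpa2b1 and Hnrnpk had the highest levels of the hnRNP genes by the mean over the 8 libraries, though Hnrnpf was above both in 3 of the 4 PD libraries. Hnrnpa2b1 was at 456 and 464 FPKM for WT LZ, 494 and 510.0 for null LZ, 202 and 219.8 for WT PD, then 255 and 284 for null PD. Hnrnpk, which binds runs of C, was at 400.3 and 455, 421 and 362, 219.7 and 219, and 228 and 236 FPKM over the same groups. Both were higher at LZ than at PD in all libraries, and neither was called between the genotypes at PD (log2 0.35 and 0.08, limma adjusted p = 0.124 and 0.723). Without the first null PD library, or without a filter, Hnrnpa2b1 was called higher (log2 0.27 to 0.43 over the left-out fits), and at the same median both turned to lower values, -1.08 and -1.35.

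Hnrnpa0 and Hnrnph3 were lower in null PD than in WT PD under all 3 scalings. Hnrnpa0 was at 18.9 and 15.7 FPKM for WT LZ, 21.7 and 12.7 for null LZ, 44.4 and 45.3 for WT PD, then 26.8 and 18.7 for null PD, so that WT PD was highest, and it rose from LZ to PD in WT (log2 1.33 ± 0.30 SE, limma adjusted p = 0.00631) under all 3 scalings. Hnrnph3 was at 66.8 and 67.7, 96.1 and 77.4, 96.6 and 94.1, and 69.3 and 39.2 FPKM over the same groups, and the PD groups did not overlap. The PD differences were log2 -0.97 ± 0.30 SE and -0.86 ± 0.28 SE (limma adjusted p = 0.0287 and 0.0351). Without a filter on low values, these calls of Hnrnpa0 and Hnrnph3 did not both hold. The call of Hnrnpa0 ended without either WT PD or the second null PD library, and that of Hnrnph3 without any library but the first of null PD (adjusted p over the left-out fits 0.0233 to 0.141 and 0.00316 to 0.141).

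Sf3b3, a scaffold subunit of SF3B, was at 59.8 and 43.8 FPKM for WT LZ, 64.3 and 59.2 for null LZ, 11.3 and 9.94 for WT PD, then 26.2 and 25.9 for null PD. WT PD was lowest, and null PD lay between it and LZ without overlap. The WT stage change was log2 -2.17 ± 0.21 SE (limma adjusted p = 0.000126), called under all 3 scalings, and the PD difference of 1.22 ± 0.21 SE (adjusted p = 0.00326) turned to -0.13 at the same median. Beside Sf3b1, its partner that contacts the branch site, it stood at 90.2% and 70.0% in WT LZ, 85.5% and 72.2% in null LZ, 13.5% and 11.5% in WT PD, then 41.4% and 39.8% in null PD. The ratio within a library was thus lowest in WT PD, and Sf3b1 itself was not called at PD (log2 -0.40, limma adjusted p = 0.0759) with all libraries. Without either null PD library, without a filter and at the same median, Sf3b1 was called lower (log2 -0.42 to -0.38 over the left-out fits).

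Sf3b4 and Sf3a1 were also called higher at PD as deposited. Sf3b4 was at 37.8 and 33.2 FPKM for WT LZ, 36.9 and 41.2 for null LZ, 24.5 and 32.0 for WT PD, then 46.1 and 74.7 for null PD. Sf3a1 was at 42.3 and 34.8, 41.2 and 42.5, 15.3 and 15.1, and 23.9 and 31.1 FPKM over the same groups. The PD groups did not overlap for either gene. The differences were log2 1.04 ± 0.27 SE and 0.80 ± 0.21 SE (limma adjusted p = 0.0158 and 0.0157), with -0.36 and -0.57 at the same median and neither called after quantile normalization. Without the first WT PD library neither was called, nor Sf3a1 without the second.

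Sf3b5 and Sf3a3 had the highest levels of the SF3 genes by the mean over the 8 libraries. Sf3b5 was at 189.9 and 154 FPKM for WT LZ, 177 and 185 for null LZ, 180.5 and 151 for WT PD, then 203 and 180.4 for null PD. Sf3a3 was at 120.3 and 122, 133 and 134, 98.9 and 79.9, and 102 and 77.6 FPKM over the same groups. Neither was called between the genotypes at PD (log2 0.21 and 0.00, limma adjusted p = 0.382 and 1) on FPKM as deposited.

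By GENCODE vM1, to which 15261 of the 15899 symbols were matched, 5 of the other splicing genes tested were X-linked besides Hnrnph2: Mbnl3, Nono, Rbm10, Rbmx and Zrsr2. As deposited, all 5 fell from LZ to PD in WT and were higher in null PD than in WT PD, 2 comparisons that share the WT PD libraries. Among all 653 X-linked genes tested, 62.2% fell and 0.919% rose from LZ to PD in WT, against 36.1% and 22.2% of 14598 autosomal genes. At PD 74.3% of X-linked genes were higher in null and 0.306% lower, against 40.5% and 11.9% of autosomal genes. The splicing genes on the X thus moved as most X-linked genes did.

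**Figure D5:**
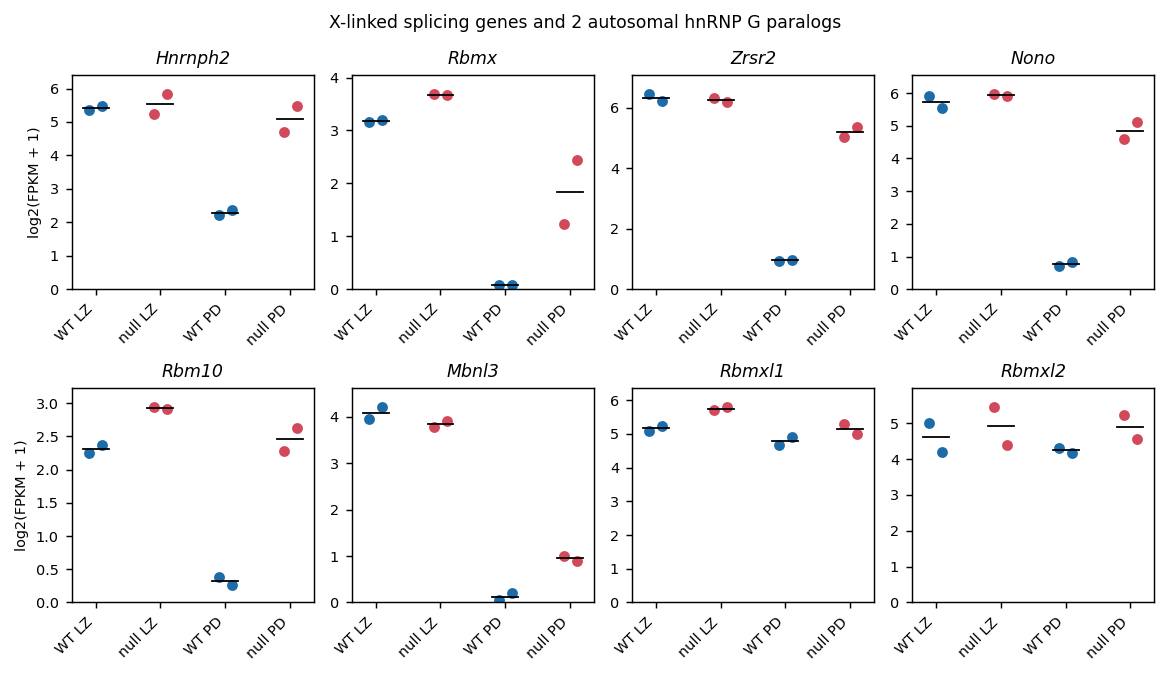
Level of 6 X-linked splicing genes and of Rbmxl1 and Rbmxl2, autosomal relatives of Rbmx, in each library as log2(FPKM + 1) (vertical axis), by group (horizontal axis), with WT in blue, null in red and a bar at the mean. All 6 X-linked genes are lowest in WT PD, where the highest of their values is 4.13 FPKM.

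Zrsr2, a protein of the minor spliceosome that reads the end of the intron, was at 86.4 and 73.1 FPKM for WT LZ, 78.7 and 71.6 for null LZ, 0.927 and 0.943 for WT PD, then 31.8 and 40.0 for null PD. Nono, a paraspeckle protein, was at 59.8 and 45.8, 61.7 and 59.3, 0.623 and 0.778, and 23.1 and 33.4 FPKM over the same groups. The PD groups did not overlap, and null PD stayed below LZ. The PD differences were log2 4.24 ± 0.20 SE and 4.08 ± 0.25 SE (limma adjusted p = 9.49e-05 and 0.000108), called under all 3 scalings and without any single library.

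Rbm10, a regulator of exon choice, was at 3.74 and 4.17 FPKM for WT LZ, 6.66 and 6.53 for null LZ, 0.299 and 0.196 for WT PD, then 3.88 and 5.17 for null PD, with a PD difference of log2 2.14 ± 0.25 SE (limma adjusted p = 0.000690) called under all 3 scalings. Mbnl3, of the muscleblind family, was at 14.6 and 17.4, 12.7 and 14.0, 0.0302 and 0.152, and 0.989 and 0.871 FPKM over the same groups. Its PD call (log2 0.82 ± 0.24 SE, limma adjusted p = 0.0250) ended at the same median, without either WT PD library, and after quantile normalization, where the value was -0.17.

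The hnRNP G family is given apart. No symbol Hnrnpgt was listed, and Rbmxl2 is the testis retrogene known as hnRNP G-T. Rbmx, the X-linked founder of the family, was at 7.98 and 8.14 FPKM for WT LZ, 11.9 and 11.7 for null LZ, 0.0573 and 0.0540 for WT PD, then 1.35 and 4.45 for null PD. Rbmxl2 was at 31.3 and 17.5, 42.5 and 20.2, 18.9 and 17.1, and 36.3 and 22.8 FPKM over the same groups. WT PD was lowest but overlapped with WT LZ, and limma called it in none of the 5 comparisons. Rbmxl2 was 3.92 and 2.15 times the level of Rbmx in WT LZ, 3.57 and 1.72 times in null LZ, 329.5 and 317 times in WT PD, then 26.9 and 5.13 times in null PD. Rbmx lay near the floor in WT PD, so the size of the ratios there is not precise.

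Rbmx fell from LZ to PD in WT (log2 -3.10 ± 0.39 SE, limma adjusted p = 0.000405) and was higher in null PD than in WT PD (log2 1.76 ± 0.39 SE, adjusted p = 0.00893), a call that ended after quantile normalization (0.71) and without either WT PD library. Rbmxl1, an autosomal retrogene, was at 33.1 and 36.8 FPKM for WT LZ, 50.9 and 54.3 for null LZ, 24.5 and 28.9 for WT PD, then 38.0 and 30.8 for null PD, with 77.7% of its windows found elsewhere. It was not called at PD (log2 0.35, limma adjusted p = 0.169). Rbmy1a1, on the Y chromosome, was at 8.08 and 12.8, 12.6 and 11.6, 0 and 0.0852, and 1.47 and 1.24 FPKM over the same groups. Its PD call (log2 1.17 ± 0.28 SE, limma adjusted p = 0.0124) ended after quantile normalization and without either WT PD library.

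Of 160 other splicing genes listed, 155 were tested. From LZ to PD in WT 55.5% of them fell (86) and 12.3% rose (19) as deposited, against 36.2% and 21.6% of all genes, with 51.6% (80) and 9.68% (15) after quantile normalization, against 30.3% and 25.9% of all genes. At the same median 31.6% (49) and 27.7% (43) were near the shares of all genes, 26.9% and 32.5%. At PD 39.4% were higher (61) and 8.39% lower (13) in null, both slightly below the shares of all genes (41.6% and 11.5%) as deposited. After quantile normalization 21.9% were higher (34) and 10.3% lower (16), against 17.8% and 25.6% of all genes, so the higher share was above theirs. At the same median the direction turned, with 7.74% higher (12) and 61.9% lower (96), against 23.4% and 40.1% of all genes.

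By list, leaving aside the 4 hnRNP G genes given above (2 higher), from 14.3% to 44.4% of genes were higher at PD as deposited, against 41.6% of all genes, and from 0% to 19.5% were lower, against 11.5%. Genes of the U1, U4/U6.U5 and U5 snRNPs had 9 higher and 0 lower of 25 (36.0% higher) as deposited, the U2 auxiliary and branch point genes 7 higher and 0 lower of 17 (41.2% higher), and the PRP19 and catalytic step genes 10 higher and 3 lower of 29 (34.5% higher). Lsm genes had 4 higher and 0 lower of 9 (44.4% higher), the SR-related and exon junction genes 10 higher and 1 lower of 23 (43.5% higher), minor spliceosome genes 1 higher and 1 lower of 7 (14.3% higher), and other regulators 18 higher and 8 lower of 41 (43.9% higher).

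Celf2, a regulator that binds GU-rich RNA, was at 23.7 and 21.2 FPKM for WT LZ, 32.6 and 23.1 for null LZ, 0.607 and 0.615 for WT PD, then 11.7 and 22.7 for null PD, and was higher at PD under all 3 scalings (log2 3.43 ± 0.33 SE, limma adjusted p = 0.000345). Ppil1, an isomerase of the catalytic spliceosome, was at 176 and 163, 129 and 145, 13.3 and 11.0, and 43.7 and 52.3 FPKM over the same groups. Magoh, of the exon junction complex, was at 688 and 587, 704 and 648, 81.1 and 75.8, and 257 and 191 FPKM. In these 3 genes WT PD was lowest, and all were called higher in null PD as deposited and after quantile normalization. At the same median Ppil1 and Magoh were not called (log2 0.52 and 0.06).

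In 6 other genes with the largest called differences of their lists, WT PD was lowest on FPKM as deposited. Lsm5, of the ring on U6 RNA, was at 100.5 and 112 FPKM there, against 272 and 229.7 in null PD, and Snrnp70, of the U1 snRNP, at 9.28 and 8.99 against 22.5 and 34.1. Srrm2, a large SR-related protein, was at 10.6 and 10.6 FPKM against 25.9 and 39.7, and Sart3, a recycling factor of U4/U6, at 3.82 and 3.23 against 8.72 and 19.8. Prpf19, a ubiquitin ligase of the catalytic step, was at 0.575 and 0.827 FPKM against 3.13 and 8.56, and Lsm11, of the U7 snRNP, at 0.164 and 0.300 against 1.14 and 1.88. Limma called all 6 higher in null PD as deposited, and the PD groups overlapped for none, but none was called at the same median. After quantile normalization Lsm5 and Srrm2 were called and the other 4 were not. The call of Prpf19 ended without the first WT PD library, that of Sart3 without either WT PD library, and that of Lsm11 without these, either null LZ or the second null PD library.

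In the minor spliceosome list Snrnp48 was at 18.4 and 20.9 FPKM for WT PD, then 27.8 and 31.6 for null PD, and Snrnp25 at 130.1 and 118 against 87.7 and 65.9. Limma called the first higher (log2 0.57 ± 0.18 SE, adjusted p = 0.0302) and the second lower (log2 -0.70 ± 0.21 SE, adjusted p = 0.0263), and Snrnp25 kept its call under all 3 scalings, while Snrnp48 was not called after quantile normalization and was called lower at the same median (log2 -0.81). Each call ended without either WT PD library, and that of Snrnp25 also without the second null PD library.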

How the data were processed

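The files held FPKM per gene symbol as deposited by the authors, for 8 libraries described as biological replicates, 2 a group. By the submitters' notes and the methods, reads trimmed to 50 bases were mapped to mm9 with TopHat2 2.1.1, and uniquely mapped reads were assembled with Cufflinks 2.2.1 on UCSC gene models. The labels name TruSeq libraries and the methods Smart-Seq2. The files hold no read counts. The step between low FPKM values put relative depth at 0.823 to 1.33 of the first WT LZ library. This estimate is rough, since it does not order the libraries as the read totals listed by the study do.

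A model with 4 group means was fitted to log2(FPKM + 1) by limma 3.58.1 in R 4.3.3, with a trend, and Benjamini-Hochberg adjustment over 15899 genes in each comparison. Each gene has the same spread in all groups, so an SE does not reflect a single group. Over all genes the median absolute replicate difference was log2 0.273 in WT LZ, 0.257 in null LZ, 0.127 in WT PD and 0.563 in null PD. For members it was 0.210, 0.143, 0.112 and 0.220. A test on simulated data used equal spread and few changed genes, so it cannot show how calls behave at PD here. Alternatives were no filter, a mean FPKM of at least 5, a pseudocount of 0.1, both other scalings, a replicate block, and each library left out, where the lone sample of a group is assumed to vary like the other groups. Without a WT PD library the spread comes only from the other groups, whose replicates differed more. Tables and plots used Python 3.11.15, numpy 2.4.6, pandas 2.3.3 and matplotlib 3.10.9. Positions and windows came from GENCODE vM1 (NCBIM37, mm9) and the longest coding transcript, which may differ from the UCSC model, and all 50 members were matched. Other named genes also had many windows found elsewhere: Hnrnpf 76.8%, Rbmy1a1 74.8%, Sf3b4 57.7%, Srsf10 53.8% and Nono 52.1%. Lower shares were 49.5% for Rbm10, 47% for Hnrnpk, 43.2% for Snrpe, 40.9% for Srsf3 and 28.1% for Hnrnph2. For most of the other splicing genes windows were not counted.

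Named genes were, in each subgroup, the 2 with the highest mean FPKM and up to 3 with the largest called change at PD and from LZ to PD in WT, with Snrpb, Snrpn and the hnRNP G genes, and the 2 largest called changes at PD of each list of other splicing genes. Hnrnpa0, Hnrnph1, Hnrnph3, Sf3b1, Srsf10 and Mbnl3 were chosen after their values were seen, as were Hnrnpf and the ratios between paralogs. The members and lists were chosen with earlier results of these data known.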

Additional observations from a re-analysis of the deposited data

Results flagged for a closer look

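By the interaction term of limma (adjusted p under 0.05 over all genes tested), the change from LZ to PD differed between the genotypes for 9 members, 7 upward (14%, against 26.0% of all genes) and 2 downward (4%, against 3.97%) as deposited. After quantile normalization 12% were upward, against 9.74% of all genes, and 4% downward, against 12.4%, and at the same median 4% and 62%, against 13.7% and 32.3%. On the log2(FPKM + 1) scale the change in null minus that in WT was 4.91 for Hnrnpa1, 2.67 for Hnrnph2, 1.39 for Hnrnpab, 1.30 for Snrpn, 1.04 for Srsf9, 1.02 for Snrpb and 0.96 for Sf3b3. It was -0.88 for Hnrnph1 and -1.41 for Srsf12. The median over all genes was 0.64. Only Hnrnpa1 and Srsf12 were called under all 3 scalings. Hnrnpa1 and Hnrnph2 were called whichever library was left out, and Hnrnpab unless it was the first WT PD library. The other 6 calls ended without either WT PD, the first WT LZ or the second null LZ library.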

How the results depend on the processing

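Setting the libraries to the same median moved many counts of members called, out of 50 where no other number is given. From LZ to PD in WT, 2 higher and 30 lower became 11 and 11. At PD, 17 higher and 3 lower became 3 and 38. For the interaction, 7 higher and 2 lower became 2 and 31. The members' median log2 change turned to 0.13 from LZ to PD in WT, -1.21 at PD and -1.31 for the interaction. At PD the log2 differences turned to -0.58 for Snrpg, -0.88 for Snrpe, -0.64 for Snrpb, -0.81 for Srsf2, -0.46 for Srsf6, -0.56 for Srsf9, -1.08 for Hnrnpa2b1, -1.35 for Hnrnpk, -1.22 for Sf3b5, -0.13 for Sf3b3, -0.36 for Sf3b4, -0.57 for Sf3a1, -0.73 for Rbmxl2 and -1.05 for Rbmxl1. In the WT stage comparison they turned to 0.83 for Sf3b5, 0.43 for Sf3a3, 0.53 for Sf3b4, 0.49 for Rbmxl2 and 0.48 for Rbmxl1. Sf3a3 at PD was 0.20 after quantile normalization. The share of higher calls among all genes called at PD was 78.3% as deposited, 41.0% after quantile normalization and 36.9% at the same median. It was 37.4%, 46.1% and 54.7% in the WT stage comparison, 60.5%, 37.4% and 39.1% in the null stage comparison, and 86.8%, 44.1% and 29.8% for the interaction. The cause was not tested. Without a filter, 4 members (8%) were higher from LZ to PD in WT (14.2% of all genes) and 4 lower for the interaction (1.69%). With a mean FPKM of at least 5, which left 48 members and dropped Srsf12 and Snrpn, these were 1 and 1 (27.9% and 6.01% of all genes), and with a pseudocount of 0.1 the first was 1 (22.0%). With a replicate block, 1 higher and 31 lower were called from LZ to PD in WT (21.5% and 35.6% of all genes), 0 and 27 in null (27.2% and 17.6%), 0 and 0 between genotypes at LZ (0.0755% and 0.0252%), 18 and 3 at PD (40.6% and 11.5%), and 7 and 3 for the interaction (23.7% and 3.70%). Correlations of replicate deviations between the 6 pairs of groups ran from -0.065 to 0.194, which does not establish a pairing. With 1 library left out, the ranges were 1 to 6 higher and 22 to 32 lower from LZ to PD in WT (16.3% to 24.3% and 27.3% to 39.6% of all genes), 0 to 1 and 16 to 30 in null (18.2% to 32.3% and 9.01% to 20.1%), 5 to 18 and 0 to 10 at PD (22.9% to 44.5% and 2.59% to 18.1%), and 2 to 10 and 0 to 9 for the interaction (10.1% to 36.8% and 0.333% to 13.0%). Sf3a3 at PD ran from -0.19 to 0.19, Sf3b5 in the WT stage comparison from -0.20 to 0.10, and Rbmxl2 there from -0.77 to 0.035 (without the first WT LZ library). Limma called 0 members at LZ under every alternative, with 1 member at an unadjusted p under 0.05 on deposited FPKM. With 2 libraries a group, a difference that was not called is not shown to be absent. FPKM without counts gives no interval for a low value, and how many reads of genes with windows shared across the genome were kept was not tested.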
